A study of Mus musculus with 16 samples.

Results

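Sprouty proteins and MAPK phosphatases are feedback inhibitors of growth factor signalling, and 8 of their genes were examined here in mouse lung endothelial cells (MLECs) treated with BMP9. The 8 genes were chosen by name: the dual-specificity phosphatase genes *Dusp1*, *Dusp2*, *Dusp5* and *Dusp6*, the Sprouty genes *Spry1*, *Spry2* and *Spry4*, and the Sprouty-related gene *Spred1*. The choice was made with earlier results of these data known. These genes are 8 of the 55414 genes in the count table. All 8 passed the filter on low counts, which left 15693 genes for testing.

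MLECs were isolated on 4 occasions from *Rosa26-CreERT2;Eng fl/fl* mice that also carry the Immorto transgene, and each isolation supplied cells for 4 libraries. KO cells had the gene of endoglin (*Eng*), a BMP9 co-receptor, deleted by treatment with 4-OH-tamoxifen, and Ctrl cells of the same isolation received vehicle. Cells were serum-starved overnight and then kept for 90 min with PBS or with BMP9 at 0.2 ng/ml of growth factor domain. Ctrl cells received sENG(M):BMP9, in which BMP9 is bound by soluble monomeric endoglin, and KO cells received pro:BMP9, in which BMP9 is bound by its prodomain. The soluble endoglin was in large excess over BMP9, so that only Ctrl cells with ligand also received free soluble endoglin.

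Each of these 4 groups, PBS or ligand in Ctrl cells and PBS or ligand in KO cells, has 4 libraries. All cells had been expanded in interferon-γ and SB431542, an inhibitor of TGF-β type I receptors, which were withdrawn before the experiment. The *Rosa26* promoter drives CreERT2 in every cell type, so that any non-endothelial cells in a culture would be recombined too. Tamoxifen exposure and loss of endoglin coincide and cannot be told apart. In the ligand-treated libraries the same holds for genotype and the form of the ligand, with its excess of soluble endoglin. In Ctrl cells BMP9 and the free soluble endoglin were given together and cannot be told apart either.

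Library totals lay between 14869115 and 17242117 counts. *Eng* itself was at 375 to 594 CPM (counts for every 1000000 of the library, with library sizes adjusted by TMM) in Ctrl PBS libraries and at 40.1 to 60.0 CPM in KO PBS libraries. With ligand it was at 525 to 776 CPM in Ctrl and at 114 to 130 CPM in KO cells, so that KO cells kept some *Eng* transcript and the KO libraries with ligand held more of it than those in PBS. The BMP target gene *Id1* rose from a mean of 29.7 to 167 CPM in Ctrl cells and from 29.3 to 170 CPM in KO cells. The 10 endothelial markers examined were all expressed, with *Pecam1* at 702 to 1945 CPM and *Cdh5* at 1447 to 2787 CPM. Of 8 leukocyte markers 3 passed the filter on low counts, with a summed level of 37.9 to 54.2 CPM. *Cd68* was at 27.3 to 40.2 CPM, whereas *Ptprc* had at most 5 counts in any library. Of 7 epithelial markers 3 passed, with a sum of 49.5 to 180 CPM, mostly *Krt18* (45.9 to 177 CPM), and the alveolar marker *Sftpc* had 0 counts in all libraries. The summed level of 10 mural and fibroblast markers was unequal between isolations, at 75.6 to 89.1 CPM in isolation 2 and 554 to 653 CPM in isolation 3. As these are bulk libraries, fewer cells that express a gene and less of its RNA per cell cannot be told apart.

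Growth factor receptors such as the VEGF and FGF receptors act through RAS, RAF and MEK to activate the ERK kinases, and active ERK induces the genes that later switch the pathway off. DUSP proteins do so by removing phosphate from the activated MAP kinases themselves, each with its own preference among ERK, p38 and JNK and its own place in the cell. Sprouty and Spred proteins act further upstream, between the receptor and RAF, and in endothelium they restrain the sprouting of new vessels. BMP9 signals through the type I receptor ALK1 mainly to SMAD1 and SMAD5.

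Promoter sequences are shown for 3 of the phosphatase genes because they differed in their response to ligand. *Dusp6* rose and *Dusp5* fell in both genotypes, and *Dusp1* passed the test in neither. Each runs 5′ to 3′ on the strand of its gene and ends before the start of the main GENCODE transcript. The GENCODE gene itself begins further upstream for *Dusp6* (position 99086564) and *Dusp1* (position 26781102). These 2 windows therefore lie inside the annotated gene. Sequences are from RefSeq (promoter table of GRCm38.p6) and were placed on GRCm39 by their exact match, at chr10:99098843-99099067 (plus), chr19:53517326-53517531 (plus) and chr17:26727494-26727696 (minus). Capitals mark matches, on either strand, to the motifs searched: the CRE TGACGTCA and its core TGACG, which overlaps it, the SMAD motifs GGCGCC and GTCTAGAC, the ETS core CCGGAA, the AP-1 site TGACTCA and the CArG box bound by serum response factor.
Dusp6: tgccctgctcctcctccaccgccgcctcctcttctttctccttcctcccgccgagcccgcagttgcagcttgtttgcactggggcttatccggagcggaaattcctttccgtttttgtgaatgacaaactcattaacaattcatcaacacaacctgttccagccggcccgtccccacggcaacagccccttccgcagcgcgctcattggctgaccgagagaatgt
Dusp5: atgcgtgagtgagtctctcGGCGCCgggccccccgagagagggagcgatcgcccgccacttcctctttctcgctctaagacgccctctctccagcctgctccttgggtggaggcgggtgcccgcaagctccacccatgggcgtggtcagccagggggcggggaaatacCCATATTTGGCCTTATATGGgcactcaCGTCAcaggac
Dusp1: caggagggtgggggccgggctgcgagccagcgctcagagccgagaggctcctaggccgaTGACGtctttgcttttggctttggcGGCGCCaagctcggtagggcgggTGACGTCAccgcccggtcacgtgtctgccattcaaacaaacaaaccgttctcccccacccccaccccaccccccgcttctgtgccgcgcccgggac

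The *Dusp6* window holds no match to any of these motifs. The *Dusp5* window holds a pair of CArG boxes side by side at positions -82 and -72 from the RefSeq start, a GGCGCC and a TGACG core. The *Dusp1* window holds a complete CRE at position -143, a GGCGCC and a further TGACG core. Of 32851 RefSeq promoters searched over the 250 bases before the start, 1.47% hold a CArG box, 1.55% the CRE, 17.8% the TGACG core and 9.59% GGCGCC. The table held 7 of the 8 members. GGCGCC was found in *Dusp1*, *Dusp2*, *Dusp5* and *Spred1*, and no motif of the set in *Dusp6*, *Spry1* or *Spry2*. These windows are counted from the RefSeq start. Only 0 bases of the *Spry2* window, 51 of *Spry1* and 128 of *Dusp2* also lie upstream of the main GENCODE transcript. The *Dusp2* match, at -83, lies inside that transcript. A match in these letters is a description of the sequence and not a binding site measured in these cells.

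The genes lie at separate loci on 7 chromosomes (GRCm39, positions from the deposited table). *Dusp1* spans chr17:26724564-26781102 on the minus strand, *Dusp2* chr2:127178079-127180296 on the plus strand, *Dusp5* chr19:53517540-53530862 on the plus strand and *Dusp6* chr10:99099093-99103351 on the plus strand. *Spry1* spans chr3:37694096-37698747 on the plus strand, *Spry2* chr14:106129381-106134253 on the minus strand, *Spry4* chr18:38719300-38734468 on the minus strand and *Spred1* chr2:116951855-117012760 on the plus strand. Counted exonic length ran from 2003 bases for *Dusp2* to 6784 bases for *Spred1*. The span given for *Dusp1* is far longer than its main transcript, which on this minus strand starts at position 26727493. The rest of the span lies upstream of that start. The whole span overlaps 6 other annotated genes, including *Ergic1* on the opposite strand and the lncRNA *Gm50275* on the same strand. Reads from the 2 annotated genes that share the strand of *Dusp1* within this span could be counted with it, and its values are uncertain to that extent. The strand setting of the counting is not given in the sources used here, so reads from transcripts annotated on the opposite strand, which overlap each of the other members except *Spred1*, may be included.

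Expressed per kilobase of counted exon, the members covered a wide range of levels in Ctrl PBS cells. *Dusp5* stood at 48.3 ± 6.2 CPM per kb (SD, n = 4, as for all means here) and *Dusp1* at 45.5 ± 8.0, which do not differ beyond their spread. *Dusp6* at 25.9 ± 5.3, *Spred1* at 23.5 ± 2.4, *Spry4* at 21.1 ± 6.3 and *Spry2* at 20.8 ± 0.93 CPM per kb formed a middle group whose neighbours differed by less than the larger SD of the pair. *Spry1* at 2.83 ± 1.02 and *Dusp2* at 2.47 ± 1.19 CPM per kb were the lowest and lay within each other's spread. *Dusp2*, a nuclear phosphatase known best from lymphocytes, had 36 to 128 counts in a library, and counting error alone gives 95% intervals of 25.2 to 49.8 and 107 to 152 counts around these extremes (exact Poisson).

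Ligand changed this order. In Ctrl cells with sENG(M):BMP9, *Dusp6* at 58.8 ± 4.6 CPM per kb stood above *Dusp1* at 43.4 ± 7.1 and *Dusp5* at 37.2 ± 4.8. In KO cells with pro:BMP9, *Dusp1* at 50.8 ± 7.8 and *Dusp6* at 49.0 ± 3.7 CPM per kb did not differ beyond their spread, and *Dusp5* was lower at 43.7 ± 4.8, a gap from *Dusp6* slightly larger than either SD. *Spry1* reached 5.27 ± 1.5 CPM per kb in Ctrl and 4.36 ± 1.81 in KO cells, still well under *Spry4* at 15.5 ± 4.9 and 19.4 ± 7.8.

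**Figure D1:**
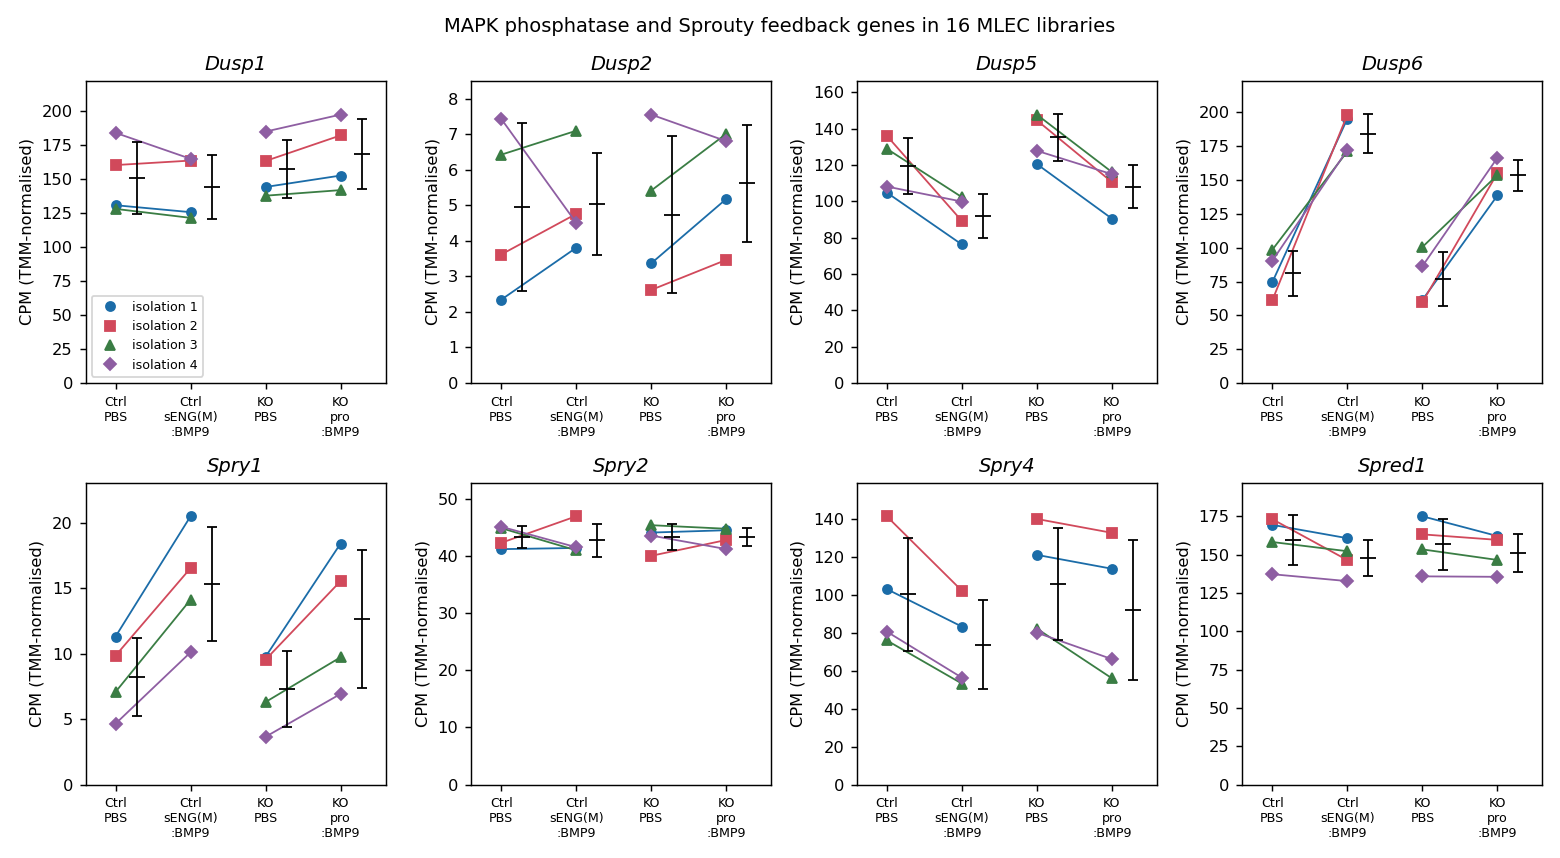
TMM-normalised CPM of each of the 8 genes in the 16 libraries (y axis, from 0, with its own scale in each panel), by group on the x axis. Each symbol is a library, lines join the PBS and ligand libraries of an isolation, and black bars give the mean ± SD (n = 4). *Dusp6* and *Spry1* are higher after ligand in every isolation of both genotypes, and *Dusp5* and *Spry4* are lower.

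The isolations differed more in some members than the treatments did. Of the variance of log2 CPM over the 16 libraries, differences between isolations took 81.3% for *Dusp1*, 81.2% for *Spred1*, 76.4% for *Spry4* and 53.5% for *Spry1*, against 4.67% for *Dusp6*. Group took 87.0% for *Dusp6* and 65.1% for *Dusp5*. *Spry1* was 2.37-fold higher in isolation 1 (mean 15 CPM) than in isolation 4 (6.34 CPM), and *Spry4* was 1.93-fold higher in isolation 2 (129 CPM) than in isolation 3 (66.8 CPM). Isolation 2 was also the lowest, and isolation 3 the highest, in summed mural and fibroblast markers (75.6 to 89.1 against 554 to 653 CPM). The summed endothelial markers were highest in isolation 2 (7485 to 7572 CPM) and lowest in isolation 3 (3448 to 3736 CPM), and the summed epithelial markers were at 161 to 180 CPM in isolation 2 and 61.7 to 82.1 CPM in isolation 3. The part of these differences in the *Spry4* levels was not tested. Each comparison was made within isolations.

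The first comparison asked how the genes answered sENG(M):BMP9 in Ctrl cells. Of the 8 members, 4 passed the test (edgeR quasi-likelihood, adjusted p under 0.05 over all genes), 2 higher and 2 lower. Of all tested genes, 9.69% passed, 5.86% higher and 3.83% lower. The share of members was higher, but 8 genes are few and were chosen with earlier results of these data known. That share was not tested and is not read as an enrichment. Their changes went in opposite directions within each family. The median log2 fold change was -0.04 over the 8 members and -0.01 over all tested genes.

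*Dusp6*, a cytoplasmic phosphatase selective for ERK and a common readout of ERK activity, rose in Ctrl cells. In isolations 1 to 4 it stood at 74.6, 61.2, 98.5 and 90.3 CPM in PBS and at 195, 198, 171 and 172 CPM with ligand. Every ligand-treated library was above every PBS library, and the 2 isolations that were lowest in PBS were the highest with ligand. The increase was 2.31-fold (log2 fold change 1.21, SE 0.12, 95% interval 0.95 to 1.46, adjusted p = 1.181e-06).

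*Dusp5*, which acts on ERK in the nucleus, fell. It went from 105, 136, 129 and 108 CPM in PBS to 76.2, 89.2, 102 and 99.8 CPM with ligand, and the groups did not overlap. Isolation 4 changed least. The log2 fold change was -0.38 (SE 0.06, 95% interval -0.50 to -0.25, adjusted p = 0.0001858), which is 0.770 of the PBS level.

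*Dusp1*, an early-response gene whose product acts on p38 and JNK as well as ERK, stood at 131, 160, 128 and 184 CPM in PBS and at 126, 163, 121 and 165 CPM with ligand. The groups overlapped almost entirely, with a log2 fold change of -0.07 (95% interval -0.15 to 0.01, adjusted p = 0.3901). *Dusp2* was higher with ligand in 3 isolations and lower in isolation 4, with a log2 fold change of 0.07 whose interval ran from -0.37 to 0.50, so that changes of moderate size in either direction were not resolved at its low counts.

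Among the Sprouty genes, *Spry1* rose and *Spry4* fell. *Spry1* went from 11.3, 9.85, 7.08 and 4.65 CPM in PBS to 20.5, 16.5, 14.1 and 10.1 CPM with sENG(M):BMP9. Groups overlapped, because isolation 4 with ligand was below isolation 1 in PBS, yet each isolation rose by a similar factor. The increase was 1.89-fold (log2 fold change 0.92, SE 0.10, 95% interval 0.72 to 1.13, adjusted p = 2.155e-06), and log2 changes of single isolations lay between 0.74 and 1.10.

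*Spry4*, another inhibitor of RAS-ERK signalling from receptor tyrosine kinases, went from 103, 141, 75.9 and 80.5 CPM to 83.2, 102, 53.2 and 56.3 CPM. It was lower with ligand in 4 of 4 isolations, while the groups overlapped through the high level of isolation 2. The log2 fold change was -0.45 (SE 0.07, 95% interval -0.59 to -0.31, adjusted p = 0.0001254).

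*Spry2* was the steadiest of the 8, at 41.2 to 45.1 CPM in PBS and 41.0 to 46.9 CPM with ligand, with a log2 fold change of -0.02 (95% interval -0.14 to 0.10). *Spred1*, whose product brings the RAS inactivator neurofibromin to the membrane, was at 137 to 173 CPM in PBS and 133 to 161 CPM with ligand. It was lower in 4 of 4 isolations but did not pass the test (log2 fold change -0.10, 95% interval -0.19 to -0.03, adjusted p = 0.1054).

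Only the call for *Dusp6* was kept when the isolations were not used as a block (log2 fold change 1.18, adjusted p = 0.001638). Without the block the adjusted p was 0.2458 for *Dusp5*, 0.6355 for *Spry1* and 0.9999 for *Spry4*, and the call for these 3 genes rests on comparing cells of the same isolation.

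The second comparison asked the same of pro:BMP9 in KO cells. Again 4 of the 8 members passed, 2 higher and 2 lower, against 5.59% of all tested genes (3.68% higher and 1.92% lower). They were *Dusp6*, *Spry1*, *Dusp5* and *Spry4*, each in the direction it took in Ctrl cells.

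*Dusp6* went from 61.4, 59.7, 100 and 86.3 CPM in KO PBS to 139, 155, 154 and 166 CPM with pro:BMP9. The groups did not overlap, and the ligand-treated libraries were closer together than the PBS libraries. The increase was 2.02-fold (log2 fold change 1.01, SE 0.12, 95% interval 0.75 to 1.27, adjusted p = 1.862e-05).

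*Spry1* went from 9.77, 9.55, 6.31 and 3.66 CPM to 18.4, 15.6, 9.73 and 6.93 CPM. The order of isolations was the same before and after ligand, and groups overlapped. The increase was 1.72-fold (log2 fold change 0.79, SE 0.10, 95% interval 0.57 to 1.00, adjusted p = 3.958e-05).

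*Dusp5* went from 120, 145, 148 and 128 CPM to 90.5, 111, 116 and 115 CPM, with no overlap of the groups. The log2 fold change was -0.32 (SE 0.06, 95% interval -0.45 to -0.20, adjusted p = 0.001278). As in Ctrl cells, isolation 4 changed least, by a log2 fold change of -0.15.

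*Spry4* went from 121, 140, 82.1 and 80.0 CPM to 114, 132, 56.0 and 66.1 CPM. The decrease was uneven, with log2 changes of -0.09 and -0.08 in isolations 1 and 2 and of -0.55 and -0.28 in isolations 3 and 4. The fitted log2 fold change of -0.24 (SE 0.07, 95% interval -0.38 to -0.09) passed narrowly, at an adjusted p of 0.0465. It did not pass without isolation 2 (-0.30, adjusted p = 0.0678), isolation 3 (-0.14, adjusted p = 0.3337) or isolation 4 (-0.22, adjusted p = 0.1795).

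*Dusp1* was at 138 to 185 CPM in PBS and at 142 to 197 CPM with ligand. It was higher in 4 of 4 KO isolations without passing the test (log2 fold change 0.09, 95% interval 0.01 to 0.17, adjusted p = 0.2347). *Dusp2* (log2 fold change 0.27, 95% interval -0.17 to 0.70), *Spry2* (0.00, -0.12 to 0.12) and *Spred1* (-0.05, -0.13 to 0.03) did not pass either. Without the isolation block, *Dusp6* alone was called (log2 fold change 1.00, adjusted p = 0.01075), and the adjusted p of *Dusp5* was 0.7054 and that of both *Spry1* and *Spry4* 1.

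**Figure D2:**
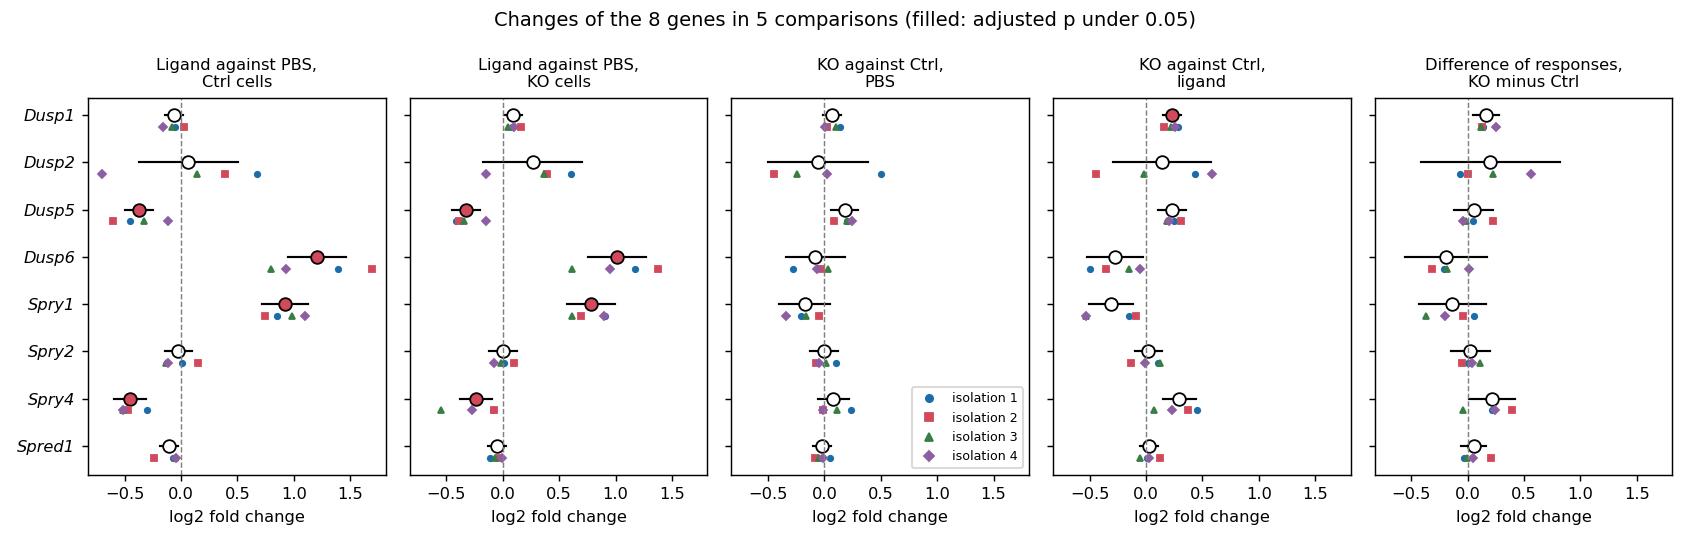
Log2 fold change of the 8 genes (rows) in the 5 comparisons (panels, common x axis). Large circles with bars give the edgeR estimate and its 95% interval, filled where the adjusted p is under 0.05, and small symbols give single isolations. *Dusp6* and *Spry1* lie right of 0 and *Dusp5* and *Spry4* left of 0 in both ligand responses, *Dusp1* is filled in the comparison of ligand-treated KO and Ctrl cells, and no circle is filled in PBS or for the difference of responses.

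In PBS, none of the 8 genes was called between KO and Ctrl cells. This held with edgeR and with DESeq2, and of all genes 0.0191% (3 genes) passed with edgeR. At an unadjusted p under 0.05 there was 1 member, beside 1071 of the 15693 genes, and 1 of 8 is not read as more than that. It was *Dusp5*, at 105, 136, 129 and 108 CPM in Ctrl PBS and 120, 145, 148 and 128 CPM in KO PBS. KO was the higher of the pair in 4 of 4 isolations while the groups overlapped (log2 fold change 0.18, SE 0.06, 95% interval 0.06 to 0.30, adjusted p = 0.4853). The quantile normalisation, ComBat and DESeq2 steps called it at a log2 fold change of 0.17 (adjusted p = 0.02257), as did edgeR with no filter on low counts (0.18, adjusted p = 0.02983). Both of these settings also called many more genes in PBS than the main fit. *Spry1* was lower in KO cells of 4 of 4 isolations, at a log2 fold change of -0.18 (adjusted p = 0.799). *Dusp1*, *Spry4*, *Dusp6*, *Dusp2*, *Spred1* and *Spry2* had log2 fold changes between -0.08 and 0.08.

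Among ligand-treated cells, *Dusp1* was higher in KO than in Ctrl cells. It was the only member of the 8 called, and the share of all genes was 0.255% (0.0892% higher and 0.166% lower in KO). The libraries of isolations 1 to 4 were at 126, 163, 121 and 165 CPM in Ctrl sENG(M):BMP9 and at 152, 182, 142 and 197 CPM in KO pro:BMP9. The groups overlapped, but the difference was similar in the 4 isolations, with log2 values between 0.15 and 0.28. The fitted difference was 1.17-fold (log2 fold change 0.23, SE 0.04, 95% interval 0.15 to 0.31, adjusted p = 0.01375). It did not pass without isolation 1 (0.21, adjusted p = 0.1769), without isolation 3 (0.23, adjusted p = 0.07423) or without the isolation block (0.23, adjusted p = 1).

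Of the other members, 4 had unadjusted p-values under 0.05 in this comparison, beside 1454 of all 15693 genes. *Spry4* was higher in KO cells of 4 of 4 isolations (log2 fold change 0.30, SE 0.07, 95% interval 0.15 to 0.44, adjusted p = 0.06878), and so was *Dusp5* (0.23, SE 0.06, 0.11 to 0.36, adjusted p = 0.09263). *Spry1* was lower in KO in 4 of 4 isolations (-0.31, SE 0.09, -0.51 to -0.12, adjusted p = 0.1767). *Dusp6* was lower too (-0.27, SE 0.12, -0.52 to -0.03, adjusted p = 0.4588), and here the groups did not overlap, since the lowest Ctrl library with ligand was at 171 CPM and the highest KO library at 166 CPM. The genes that rose with ligand were thus lower in KO cells, and those that fell with ligand were higher, but none of these 4 passed the test. The Ctrl libraries with ligand also entered the comparison that called these 4 genes. The opposite signs are therefore not independent of those calls. In PBS, KO against Ctrl log2 fold changes had the same signs (*Dusp5* 0.18, *Spry1* -0.18, *Dusp6* -0.08, *Spry4* 0.08), and none passed there.

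DESeq2 called *Spry4* (0.29, adjusted p = 0.01051) and *Dusp5* (0.23, adjusted p = 0.03738) beside *Dusp1*. The summed mural and fibroblast markers also differed with genotype, with medians of 545 and 556 CPM in the Ctrl groups and 379 and 382 CPM in the KO groups and overlapping ranges (75.6 to 567 CPM in KO and 83.9 to 653 CPM in Ctrl libraries). Their part in these differences was not tested.

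The difference of both ligand responses was tested directly. No member and no gene at all passed (0% of 15693, 565 with an unadjusted p under 0.05, and 0 with DESeq2). Of the members, *Dusp1* and *Spry4* had an unadjusted p under 0.05. The log2 fold change of *Dusp1* with ligand was -0.07 in Ctrl and 0.09 in KO cells, and neither passed. Its difference, KO minus Ctrl, was 0.16 (95% interval 0.05 to 0.27), with the same sign in 4 of 4 isolations. The *Spry4* response was less negative in KO than in Ctrl cells by 0.22 (0.01 to 0.42), with the same sign in 3 of 4. For *Dusp6* the difference was -0.19 (-0.56 to 0.17) and for *Spry1* -0.14 (-0.43 to 0.16). For *Dusp5* it was 0.05 (-0.12 to 0.23), for *Spry2* 0.02 (-0.15 to 0.20) and for *Spred1* 0.05 (-0.06 to 0.17), and for *Dusp2* the interval was wide (-0.42 to 0.82). These intervals leave room for a smaller *Dusp6* or *Spry1* response in KO cells and do not show that the responses were equal.

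Since the phosphatase pair and the Sprouty pair each moved apart, their ratios within a library were calculated. These pairs were chosen after their values had been seen, and no test was made. The ratio of *Dusp6* to *Dusp5*, both as CPM per kb, was 0.562, 0.355, 0.603 and 0.660 in Ctrl PBS and 2.02, 1.76, 1.32 and 1.36 with sENG(M):BMP9. In KO cells it was 0.402, 0.326, 0.537 and 0.533 in PBS and 1.21, 1.11, 1.05 and 1.14 with pro:BMP9. All PBS libraries were thus below 1 and all ligand-treated libraries above 1. The 4 KO ligand libraries lay below the 4 Ctrl ligand libraries, and in PBS too KO was the lower in each isolation. For neither gene did the difference of responses pass its test. The ratio of *Spry1* to *Spry4* stayed below 1 throughout. It was 0.0945 to 0.180 in Ctrl PBS and 0.265 to 0.435 with ligand, and 0.0748 to 0.132 in KO PBS and 0.172 to 0.284 with ligand.

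**Figure D3:**
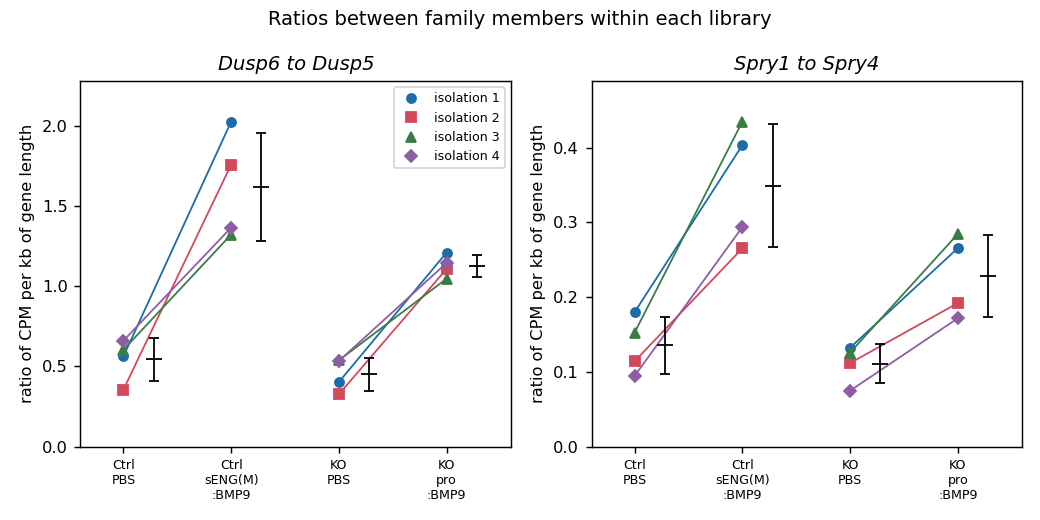
Ratio of *Dusp6* to *Dusp5* and of *Spry1* to *Spry4* in each library, both as CPM per kb (y axis, ratio), by group. Symbols are isolations and lines join the PBS and ligand libraries of an isolation. The *Dusp6* to *Dusp5* ratio lies between 0.326 and 0.660 in PBS and between 1.05 and 2.02 with ligand, and that of *Spry1* to *Spry4* stays under 0.435.

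The likeness of patterns was described by Pearson's correlation of log2 CPM over the 16 libraries after the mean of each isolation was removed. These points share the ligand treatment, and no p is given. *Dusp6* and *Spry1* ran together (0.90), as did *Dusp5* and *Spry4* (0.82), and *Dusp5* ran against *Dusp6* (-0.90). Of all tested genes, those most like *Dusp6* were *Cxxc5* (0.99), *Klhl21* (0.99) and *Cbfa2t3* (0.98), and those most like *Spry1* were *Dyrk2* (0.98), *Camsap2* (0.97) and *Erbin* (0.97). For *Dusp5* they were *Sh3bgrl2* (0.97), *Ccl4* (0.97) and *Adamts4* (0.97), and for *Spry4* they were *Snrk* (0.95), *Cln8* (0.95) and *Apold1* (0.95). *Dusp1* was followed by *Stard3* (0.94), *Leprot* (0.89) and *Mdp1* (0.89), and *Spred1* by *Spata2* (0.93), *Plekhm3* (0.92) and *Coro1a* (0.91). *Dusp2* was nearest to *1110025M09Rik* (0.88), *Zmat5* (0.85) and *Slc25a17* (0.84). *Spry2*, which passed the test in no comparison, was nearest to *Lamtor2* (0.93), *Ndufa1* (0.87) and *Ccs* (0.86).

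The rest of the pathway was followed through 97 further tested genes in 7 lists. In Ctrl cells 30 of the 97 passed after ligand, 19 higher and 11 lower (9.69% of all tested genes passed), and in KO cells 23 passed, 15 higher and 8 lower (5.59% of all tested genes). These shares are the background for the counts of each list that follows. The lists, too, were chosen with earlier results of these data known. All those that passed moved the same way in 4 of 4 isolations, which a test blocked on these same isolations favours. Without the isolation block 6 of the 97 passed in each genotype.

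Of the 8 other dual-specificity MAPK phosphatases, 1 rose and 4 fell in Ctrl cells, and 1 rose and 3 fell in KO cells. *Dusp10*, which prefers p38 and JNK, fell from 19.6 ± 1.6 to 10.6 ± 0.73 CPM in Ctrl (log2 fold change -0.88, adjusted p = 2.992e-06) and from 21.7 ± 3.1 to 12.7 ± 1.8 CPM in KO cells (-0.78, adjusted p = 1.862e-05). *Dusp4*, a nuclear phosphatase, rose, with log2 fold changes of 0.29 (Ctrl, adjusted p = 0.0004761) and 0.30 (KO, adjusted p = 0.0005001). *Dusp14* and *Dusp7* fell in both genotypes, with log2 fold changes of -0.29 and -0.21 in Ctrl and -0.30 and -0.21 in KO cells. *Dusp3* fell in Ctrl cells (-0.21, adjusted p = 0.001099) and had a log2 fold change of -0.12 in KO cells (adjusted p = 0.1184). The median log2 fold change of this list was -0.21 in Ctrl and -0.14 in KO cells, against -0.01 and 0.00 over all tested genes.

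Of the remaining Sprouty and Spred genes, *Spred2* rose from 71.2 ± 10.2 to 83.6 ± 9.7 CPM in Ctrl cells (log2 fold change 0.23, adjusted p = 0.0005951) and by 0.21 in KO cells (adjusted p = 0.002802). *Spred3* had log2 fold changes of -0.18 in both genotypes and did not pass (adjusted p = 0.1061 in Ctrl and 0.1474 in KO). *Spry3* did not pass the filter on low counts.

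Most genes of the cascade, which include kinases, adaptors and regulators of RAS, did not pass. Of 23 genes from RAS to ERK, 4 rose in Ctrl cells and 1 in KO cells, and none fell. Of all tested genes 5.86% rose in Ctrl and 3.68% in KO cells, and the KO count is near that share. *Rasa1*, a GTPase-activating protein that switches RAS off, rose in both (log2 fold change 0.40, adjusted p = 5.089e-06 in Ctrl, and 0.28, adjusted p = 0.0004852 in KO). The other 3 in Ctrl cells were *Sos2* (0.21), an exchange factor that loads RAS with GTP, *Shoc2* (0.19), a scaffold for RAF activation, and *Ptpn11* (0.13), the phosphatase SHP2. *Mapk3*, which encodes ERK1, had log2 fold changes of 0.08 in Ctrl and 0.05 in KO cells and did not pass.

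Of 16 tested kinases of the p38, JNK and ERK5 branches, 2 rose and 1 fell in either genotype. *Map2k3*, which activates p38, rose, with log2 fold changes of 0.64 (Ctrl, adjusted p = 1.026e-08) and 0.56 (KO, adjusted p = 1.28e-07). *Mapk7*, encoding ERK5, fell (-0.23 in Ctrl, adjusted p = 0.002794, and -0.24 in KO, adjusted p = 0.0039). The other gene that rose was *Mapk14*, encoding p38α, in Ctrl cells (0.18, adjusted p = 0.00831) and *Map3k1* in KO cells (0.36, adjusted p = 0.01776).

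Of 17 tested growth factor receptor genes, 3 rose in Ctrl and 2 in KO cells, and none fell with ligand. *Fgfr3*, an FGF receptor, went from 3.63 ± 1.00 to 11.3 ± 3.1 CPM in Ctrl cells (log2 fold change 1.62, adjusted p = 6.044e-08) and from a mean of 3.35 to 9.36 CPM in KO cells (1.47, adjusted p = 5.593e-07). *Kdr*, the main signalling receptor for VEGF in endothelium and also among the endothelial markers checked here, rose with log2 fold changes of 0.92 (Ctrl, adjusted p = 0.000103) and 0.76 (KO, adjusted p = 0.00119). *Fgfr1* rose in Ctrl cells by 0.13 (adjusted p = 0.0315).

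Transcripts known to respond to ERK moved in both directions. Of 22 such genes, 6 rose and 3 fell in Ctrl cells, and 7 rose and 2 fell in KO cells, with list medians of -0.01 and 0.04 on the log2 scale. The largest increases in Ctrl cells were those of *Spsb1*, an adaptor of a ubiquitin ligase (log2 fold change 1.46, adjusted p = 8.771e-09), *Phlda1* (1.10, adjusted p = 3.847e-06), *Junb* (0.97, adjusted p = 9.46e-10) and *Egr2* (0.79, adjusted p = 0.002974). *Junb* is known as a target of the TGF-β family as well. In KO cells *Spsb1* rose by 1.19, *Phlda1* by 1.19 and *Junb* by 0.81, and *Fosb* rose by 0.80 (adjusted p = 0.002674), while its log2 fold change in Ctrl cells was -0.06 (adjusted p = 0.9179). The difference of the *Fosb* responses did not pass its own test (0.86, SE 0.22, adjusted p = 0.9996).

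The 3 that fell in Ctrl cells, named after their values had been seen, were *Egr1*, an immediate early transcription factor (65.6 to 44.9 CPM in the mean, log2 fold change -0.59, adjusted p = 0.0002636), *Ier3* (-0.27, adjusted p = 0.03984) and *Fosl1* (-0.21, adjusted p = 0.0177). *Egr1* and *Ier3* also fell in KO cells (-0.44, adjusted p = 0.006526, and -0.41, adjusted p = 0.003524). The ETS factor genes *Etv4* and *Etv5* had log2 fold changes of 0.00 (adjusted p = 0.9938) and -0.05 (adjusted p = 0.6643) in Ctrl cells.

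Feedback inhibitors outside the DUSP and Sprouty families were mixed. Of 9 tested, 2 rose and 3 fell in Ctrl cells, and 1 rose and 2 fell in KO cells. *Lrig3* rose (log2 fold change 1.08, adjusted p = 0.0001179 in Ctrl, and 0.70, adjusted p = 0.01431 in KO). *Errfi1*, an inhibitor of EGF receptor kinases, fell (-0.38, adjusted p = 0.000253 in Ctrl, and -0.40, adjusted p = 0.0002203 in KO), as did *Lrig1* (-0.21, adjusted p = 0.002044, and -0.16, adjusted p = 0.03905). *Il17rd*, which like the Sprouty proteins restrains FGF signalling, fell in Ctrl cells (-0.30, adjusted p = 0.02912).

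**Figure D4:**
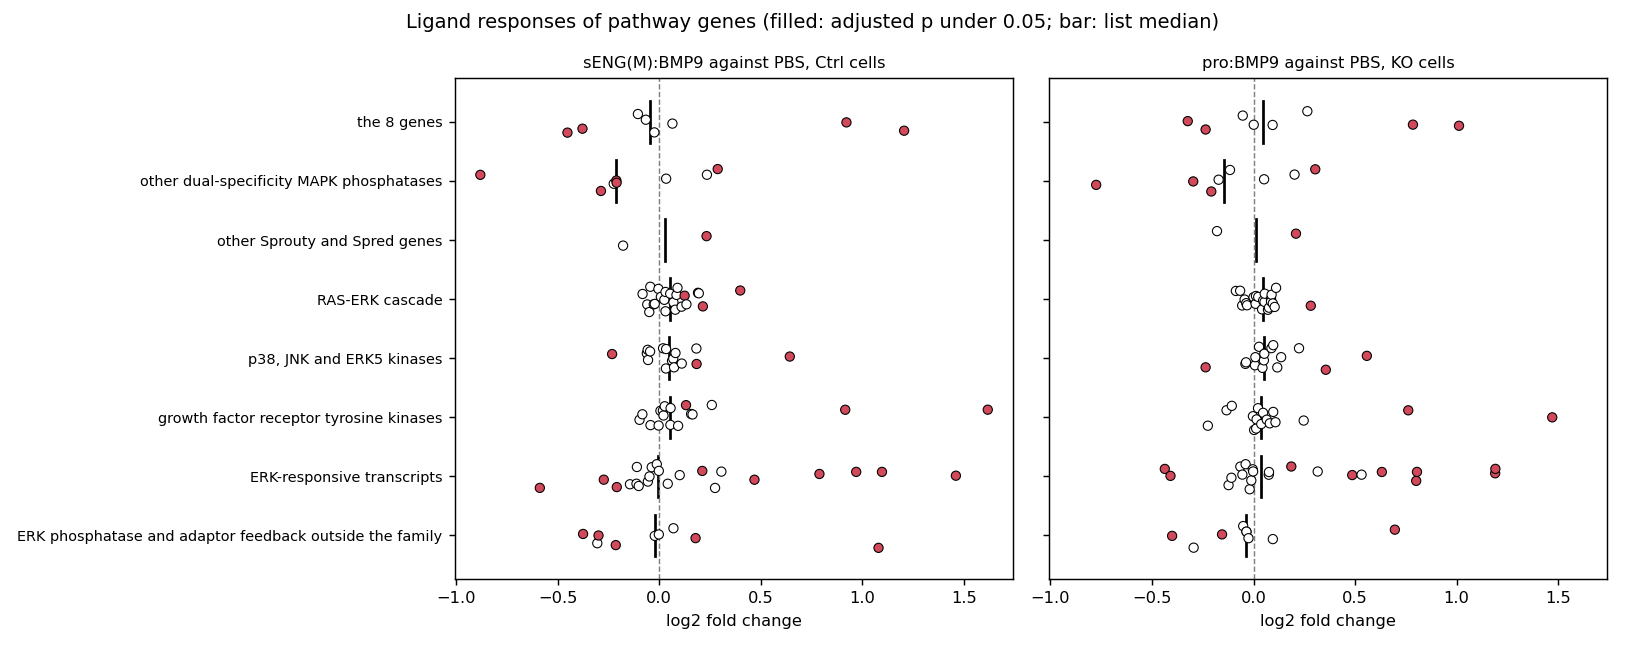
Log2 fold change (x axis) of the 8 genes and of 97 further pathway genes in 7 lists (rows), with ligand against PBS in Ctrl cells (left) and in KO cells (right). Each circle is a gene, filled where the edgeR adjusted p is under 0.05, and black bars give the list median. The dual-specificity phosphatases outside the 8 have medians of -0.21 and -0.14, and the other lists have medians between -0.04 and 0.05.

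Between KO and Ctrl cells the 97 genes were nearly all uncalled. In PBS none passed with edgeR or DESeq2, with 8 at an unadjusted p under 0.05. With ligand 1 passed with edgeR, 3 with DESeq2, and 18 had an unadjusted p under 0.05. The gene called was *Pdgfrb*, a receptor of mural cells and fibroblasts, lower in KO cells of 4 of 4 isolations (log2 fold change -0.29, SE 0.05, adjusted p = 0.02888). It is also among the mural and fibroblast markers whose sum was lower in KO groups by its median, and the part of those cells in this result was not tested. For the difference of responses none passed with edgeR or DESeq2, and 1 had an unadjusted p under 0.05.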

How the data were processed

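MLECs of 4 isolations gave 16 libraries in 4 groups, assigned by their labels, and the replicate number marks the isolation. The authors deposited unnormalised counts for each gene and library. Stranded poly(A) libraries were aligned to GRCm39 with HISAT2 2.0.5 and counted with featureCounts 1.5.0-p3, and DESeq2 1.26.0 was used later (versions per the submitters' processing notes). The annotation release is not given in the sources used here. Gene positions and lengths were taken from the deposited table, and overlaps from GENCODE vM39.

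In R 4.3.3, genes were filtered with filterByExpr of edgeR 4.0.16 (minimum count 10, minimum total count 15), which left 15693 of the 29339 genes with a count. Counts were scaled by TMM and tested with edgeR's quasi-likelihood test on all 16 libraries, blocked by isolation, with Benjamini-Hochberg adjustment over all tested genes (threshold 0.05). There were 5 comparisons. CPM values have no prior count, and log2 CPM used for single isolations, variance shares and correlations has a prior count of 2. The 95% intervals use the model's t quantile. Their width comes from a spread estimated for each gene over all 16 libraries and moderated across genes. It is therefore not the spread of the named change between isolations, which can be larger. The block removes differences in level between isolations. In every one of 24 pairs of libraries with the same number, deviations from the group means correlated (0.67 to 0.81, mean 0.76; -0.25 on average over the 72 other pairs), in keeping with the isolation names in the labels. No libraries were duplicates.

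All 8 members are named in every comparison, with up to 4 genes of largest change in each list that passed, and the 3 genes most like each member. The members and lists were chosen with earlier results of these data known. The alternatives were no block, DESeq2 1.42.0, RLE size factors, no filter, at least 10 counts in every library and only the libraries compared. Further ones were each isolation left out, and quantile normalisation, ComBat (sva 3.50.0) and DESeq2 without a block. The study names these last steps but not its batch, for which isolation was taken here. After ligand they gave more calls between KO and Ctrl cells than the paper reports, so they do not reproduce its calls. The test was tried on simulated counts first. Total counts limit precision mainly for *Dusp2*. Some genes of the lists are not reported here.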

Additional observations from a re-analysis of the deposited data

Results flagged for a closer look

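Among 32 sets of 4 libraries (8 genes in 4 groups), 1 library stood apart from the other 3 by Dixon's criterion at the 95% level. *Spry2* was at 46.9 CPM in Ctrl sENG(M):BMP9 cells of isolation 2, and at 41.0 to 41.5 CPM in the other isolations of that group, so that the gap took 0.909 of the range of the group (above the critical value for 4 values). Chance alone gives about 1 such case in 20 sets. *Spry2* passed the test in no comparison.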

How the results depend on the processing

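Results of the ligand responses depended on the replicate block, the pairing of libraries by isolation, more than on any other of the 11 settings. Without the replicate block, called genes were 167 in Ctrl (136 higher, 31 lower) and 91 in KO cells (80 higher, 11 lower), 1 between KO and Ctrl in PBS and 1 after ligand, and members called were 1, 1, 0 and 0. The replicate block changed no other call of a member. The 4 members called in Ctrl cells stayed called under every other setting, as did *Dusp6*, *Spry1* and *Dusp5* in KO cells. Quantile normalisation, ComBat and DESeq2 gave 1340 calls for KO ligand (794 higher, 546 lower), 169 in PBS, 533 after ligand (265 higher, 268 lower) and 17 for the difference of responses, with 1 member in PBS and 4 after ligand. With no filter on low counts 204, 517 (255 higher, 262 lower) and 52 genes were called in the last 3 comparisons, with 1 member in PBS and 4 after ligand. DESeq2 gave 7 in PBS and 141 after ligand (75 higher, 66 lower; 3 members), and only the 8 libraries compared gave 1 in PBS. The causes were not tested. Leaving out each isolation gave 573 to 745 calls for KO ligand (lowest without isolation 2), 1 to 69 in PBS (1 without isolation 3, 69 without isolation 4) and 6 to 175 after ligand (6 without isolation 1, 175 without isolation 4), with 0 to 2 members after ligand.

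Reversals concerned members whose change was close to 0. For *Spry2* in KO ligand the log2 change was -0.00298 with DESeq2, -0.00297 with RLE, -0.00081 with at least 10 counts, -0.00043 with 8 libraries and -0.0052 with the ComBat steps, and -0.032 to 0.027 with an isolation left out. Leaving out an isolation also gave -0.081 to 0.012 for *Spry2* and -0.075 to 0.36 for *Dusp2* in Ctrl ligand, -0.18 to 0.032 for *Dusp2* and -0.038 to 0.021 for *Spry2* in PBS, -0.014 to 0.069 for *Spry2* and -0.0089 to 0.054 for *Spred1* after ligand, and -0.0087 to 0.083 for *Dusp5*, -0.0062 to 0.080 for *Spred1* and -0.0045 to 0.048 for *Spry2* in the difference of responses. Of all single-gene results, 387 kept direction and side of the threshold, 12 lost a call, 12 gained a call and 21 reversed. DESeq2 gave no adjusted p for *Dusp2* in 2 cases.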
